A study of Acipenser transmontanus and Acipenser medirostris with 18 samples.

Results

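The ampullae of Lorenzini of white sturgeon (Acipenser transmontanus) were represented by 1 PacBio Iso-Seq library of dissected tissue, chosen by its label alone from 6 white sturgeon tissue libraries and 18 libraries in the series. It was set against dorsal skin, the barbel, the rim of the mouth, the upper palate and the esophagus, also with 1 library each. All 6 samples were labelled octoploid, and the labels name no treatment. They do not say which fish gave each piece. The other 12 libraries came from cultured cells of white and green sturgeon. The study grew epithelial cells from such sites, and the tissue libraries show what the sites themselves express. The label called batch repeats the barcode number of each library. Because each site had 1 library, site, fish and library preparation cannot be told apart.

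Ampullae of Lorenzini are electrosensory organs of the head in sturgeons and in sharks and rays. Each organ has a gel-filled canal that opens through a pore in the skin and ends in a pouch lined with receptor cells. The receptor cells resemble hair cells of the inner ear and release transmitter onto sensory nerve fibres. The surrounding surface is a stratified epithelium, in which keratin filaments anchored at desmosomes hold the cells together.

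Iso-Seq reads full-length transcripts, and each read was counted as 1 transcript, so shares of counts were used with no division by length. The paper amplified the cDNA by PCR before sequencing. Whether recovery of long transcripts differed between the libraries was not tested. Rows were summed by PacBio locus, and a locus took the name of the sterlet (Acipenser ruthenus) protein with most of its counts. Shares are percentages of the counts that carry a sterlet protein name. The ampullae library held 75334 counts, of which 65751 were named, and the named counts of the other tissues ranged from 19427 in esophagus to 195889 in barbel. The limit that a count of 0 allows was taken as 3 counts, which correspond to 0.00456% in ampullae and 0.0154% in esophagus. In ampullae 12.7% of counts had no protein name, against 4.07% to 34.8% in the other tissues. Intervals in the text are exact 95% binomial (Clopper-Pearson) intervals. The upper end of the two-sided interval for 0 counts lies somewhat above the limit of 3 counts. Intervals and limits cover counting error only, since amplified molecules are not independent and no site had a replicate.

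Of 12340 named loci, 3278 had at least 20 counts over the 6 tissues. A locus was called above or below the other tissues when its ampullae interval lay entirely outside all 5 others. By this rule 19 loci were above (0.58% of those tested) and 4 were below (0.122%). The count above was 30 without the dorsal skin library, and the count below was 7 without any of barbel, upper palate, esophagus or dorsal skin. By the share alone, ampullae ranked highest at 327 loci (9.98%) and lowest at 439 (13.4%), so most of those ranks did not meet the interval rule. Among the other 5 sites edgeR estimated a common biological coefficient of variation of 0.59, which is spread beyond counting error. In edgeR's quasi-likelihood test of ampullae against the other 5 tissues, 0 loci were higher and 0 lower at a Benjamini-Hochberg adjusted p of 0.05 (0% each), and the lowest adjusted p was 0.999. At an unadjusted p under 0.05 edgeR gave 24 loci higher and 55 lower, and DESeq2 gave 7 and 45 with 0 after adjustment. All these counts are out of the 3278 loci tested, and the unadjusted ones are not calls. The edgeR test takes the spread among the 5 other sites as the spread of the lone ampullae library. An exact permutation test of 1 library against 5 cannot go below a one-sided p of 0.167. The values below therefore describe this library and not the site in general.

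**Figure D1:**
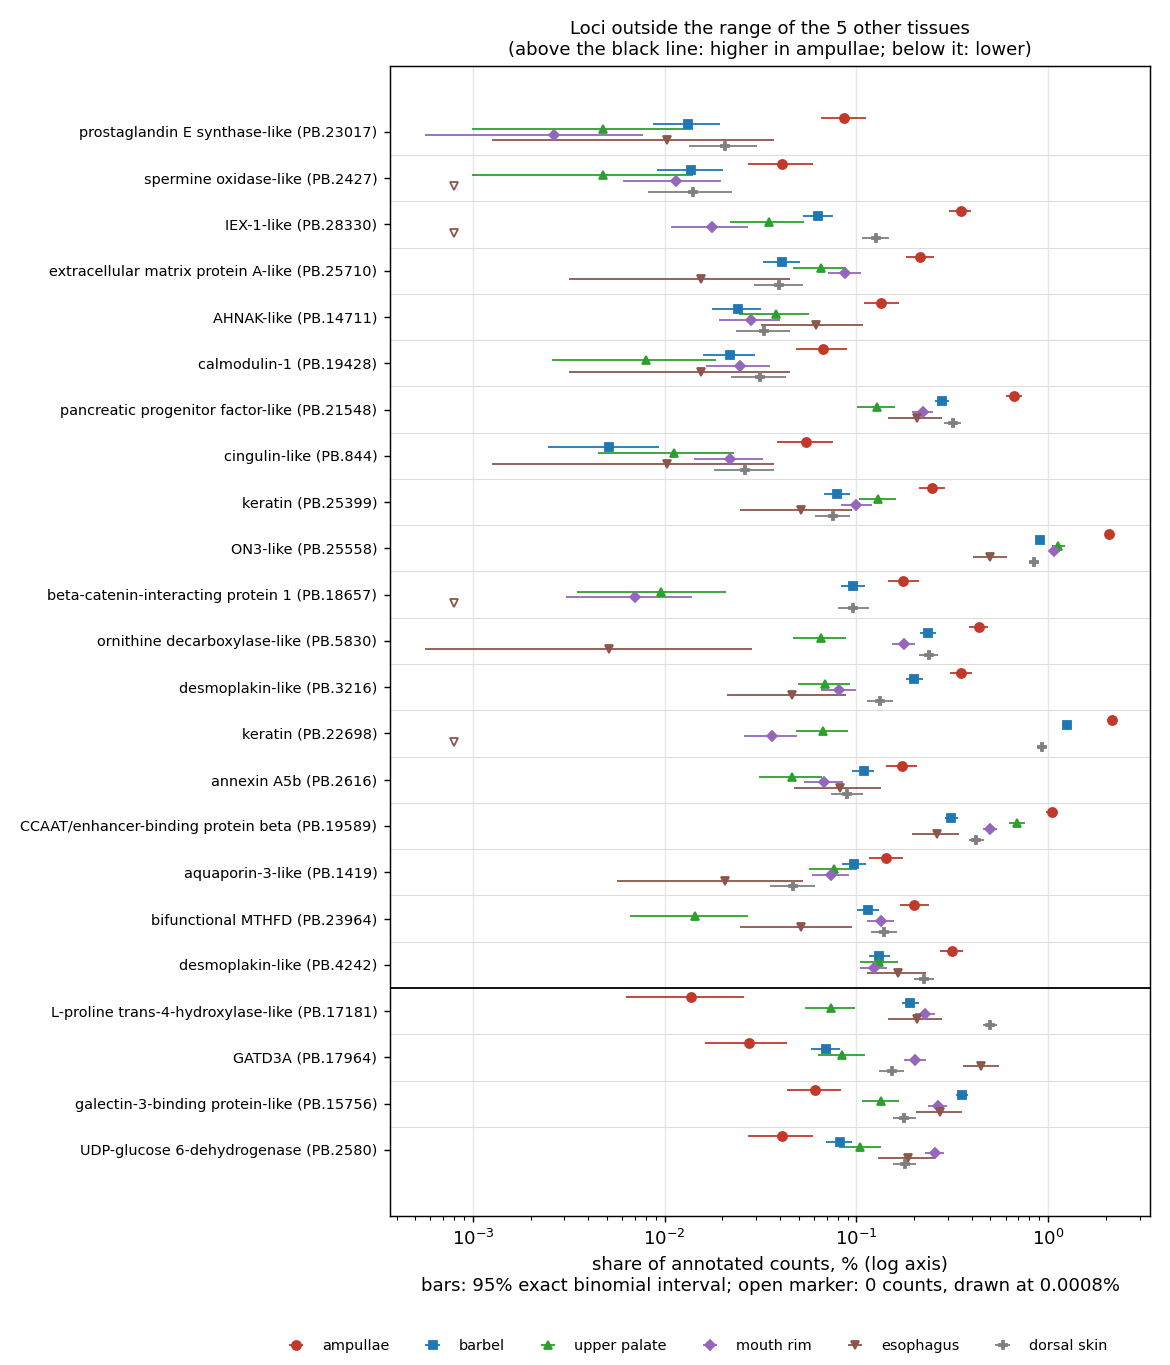
Shares of named counts (%, log axis) of the 23 loci outside the range of the other tissues, by tissue, with 95% exact binomial intervals. Each row has 6 libraries, and open markers are 0 counts drawn at the left edge. The red ampullae points lie right of all others for 19 loci and left of all others for 4.

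Structural proteins of stratified epithelium, 2 desmoplakin and 3 keratin loci, were among the 19 loci above the other tissues. Both loci called desmoplakin-like, the protein that ties keratin filaments to desmosomes, were called. Locus PB.3216 stood at 0.351% in ampullae, 0.201% in barbel, 0.0686% in upper palate, 0.081% in mouth rim, 0.0463% in esophagus and 0.133% in dorsal skin. Its ampullae share was 1.75 times that of barbel, the nearest tissue (interval 1.48 to 2.06). At locus PB.4242 the shares were 0.315% in ampullae, 0.132% in barbel, 0.132% in upper palate, 0.123% in mouth rim, 0.165% in esophagus and 0.226% in dorsal skin. The nearest tissue there was dorsal skin, 1.39 times lower (1.16 to 1.67). Summed desmoplakin reached 0.666% in ampullae (0.605% to 0.731%), with 0.201% to 0.359% in the other tissues.

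The other desmosome and envelope proteins did not all share this position. Plakophilin-1-like (PB.21755), a desmosomal plaque protein and the most abundant of the group, was at 1.1% in ampullae, below 1.67% in barbel and close to 1.14% in dorsal skin. Periplakin, which links keratin to the cell envelope, summed to 0.222% in ampullae and 0.0909% to 0.196% elsewhere, and its interval (0.188% to 0.261%) overlapped those of other tissues. Filamin-A, an actin cross-linker, had 19 ampullae counts, or 0.0289%, with 0.00515% to 0.0159% elsewhere. Its interval (0.0174% to 0.0451%) also overlapped those of other tissues. Envoplakin had 4 ampullae counts. No locus name matched the search for transglutaminase 1, so it was not analysed here. Of 31 loci matched as desmosome and cell envelope, 17 had enough counts, 2 were above and 0 below. Over all 3278 loci tested 0.58% were above and 0.122% below. The median log2 ratio of the 17 to the median of the other tissues was 0.41, against -0.13 over all 3278 loci.

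Both keratin loci typed here as type II were above the other tissues. Keratins form filaments as pairs of a type I and a type II chain, and 7 loci here could be typed. The study's transcript list names them KRT8-like, KRT13-like, KRT19-like or KRT50kDa-like, and from those names 2 were taken here as type II and 5 as type I. Locus PB.25558, named intermediate filament protein ON3-like, was at 2.09% in ampullae, 0.912% in barbel, 1.13% in upper palate, 1.08% in mouth rim, 0.499% in esophagus and 0.843% in dorsal skin. The ratio to upper palate, the nearest tissue, was 1.85 (1.69 to 2.03). Its sterlet protein matches did not all share this position. The match with most ampullae counts was at 1.39% in ampullae and 0.19% to 0.697% elsewhere. Another was at 0.205% in ampullae, below 0.384% in upper palate and 0.216% in esophagus. Locus PB.25399 was at 0.249% in ampullae, with 0.0515% to 0.129% in the other tissues, a ratio of 1.93 to upper palate (1.47 to 2.55). Together the type II loci held 2.34% of ampullae counts (2.22% to 2.46%) and 0.551% to 1.26% elsewhere. Keratin loci that could not be typed included PB.23354, at 0.569% in ampullae and 0.0439% to 1.35% elsewhere. Another, PB.25400, had 0 counts in ampullae and 4 in each other tissue.

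Type I keratins differed from one locus to the next. The most abundant locus of the ampullae library, keratin PB.22701, took 7.72% of its counts, lower than the 15.4% in barbel and higher than 5.63% in mouth rim, 3.78% in upper palate, 2.36% in dorsal skin and 0.0515% in esophagus. Keratin PB.25257 was at 1.66%, between 2.18% in esophagus and 1.12% in upper palate. Only PB.22698 among the 5 was above all other tissues, at 2.15% in ampullae, 1.25% in barbel, 0.067% in upper palate, 0.0361% in mouth rim, 0% in esophagus and 0.932% in dorsal skin. Its ratio to barbel was 1.71 (1.6 to 1.83). The limit of 3 counts for the 0 in esophagus is a share of 0.0154%. The type I loci summed to 11.5% in ampullae (11.3% to 11.8%), second to barbel at 17.1%. All 22 loci named keratin or ON3 summed to 15.7% in ampullae, 18.6% in barbel and 5.61% to 10.7% in the other 4 tissues.

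Within locus PB.22698 the ampullae library and the barbel library carried different sterlet protein matches. A single sterlet keratin protein took 1360 of 1412 ampullae counts (96.3%, interval 95.2% to 97.2%), 1092 of 1129 in dorsal skin (96.7%), 41 of 42 in upper palate (97.6%) and 39 of 41 in mouth rim (95.1%). In barbel the same protein took 394 of 2456 counts (16%, 14.6% to 17.6%), and 3 other keratin proteins took 967, 748 and 347. Counted by that protein alone, the share was 2.07% in ampullae, 0.201% in barbel and 0.901% in dorsal skin. Barbel was the exception among the 5 tissues with counts at this locus, the others carrying mostly that protein. Related keratin copies are near-identical in places, and how the protein match split reads between them was not tested.

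**Figure D2:**
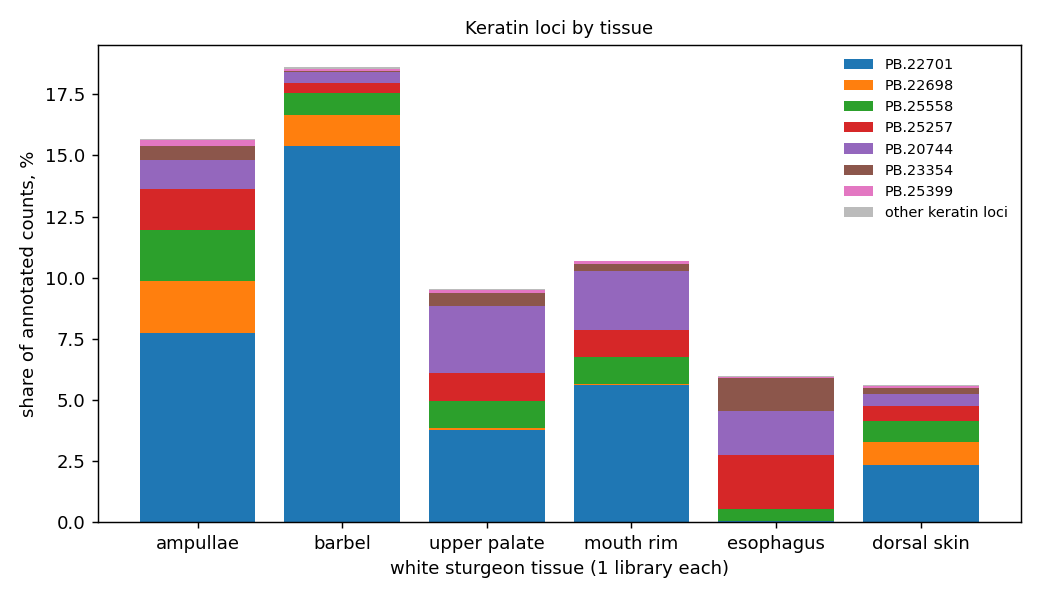
Shares of named counts (%) of the 7 keratin loci most abundant in ampullae and of the remaining keratin loci, stacked for each of 6 white sturgeon tissues with 1 library each. The bars reach 15.7% in ampullae and 18.6% in barbel, and PB.22698 and PB.25558 take a wider band in ampullae than in any other tissue.

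Enzymes of polyamine and prostaglandin metabolism were also among the 19. Ornithine decarboxylase makes putrescine, the starting point of polyamines, and spermine oxidase breaks spermine down. Ornithine decarboxylase-like PB.5830 was at 0.435% in ampullae, 0.236% in barbel, 0.0654% in upper palate, 0.177% in mouth rim, 0.00515% in esophagus and 0.238% in dorsal skin, a ratio of 1.82 to dorsal skin (1.54 to 2.16). A second locus of the same name, PB.6882, was not above, at 0.245% in ampullae and 0.284% in dorsal skin. Spermine oxidase-like PB.2427 was at 0.0411% in ampullae from 27 counts, with 0% to 0.014% elsewhere and a ratio of 2.93 to dorsal skin (1.54 to 5.72). The other spermine oxidase-like locus, PB.70, was at 0.0076% in ampullae and 0.00478% to 0.0154% elsewhere. Of 10 polyamine loci with enough counts, 2 were above and 0 below, against 0.58% above and 0.122% below over all loci tested. The 17 matched loci summed to 0.821% in ampullae and 0.134% to 0.687% elsewhere. The polyamine list was drawn up after the values were seen, so its count of called loci is no test.

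Prostaglandin E synthase-like PB.23017, named for the enzyme that forms prostaglandin E2, had the largest ratio of all 19. Its share was 0.0867% in ampullae (57 counts), 0.0133% in barbel, 0.00478% in upper palate, 0.00264% in mouth rim, 0.0103% in esophagus and 0.0206% in dorsal skin. The ratio to dorsal skin was 4.2 (2.58 to 7.02). Its unadjusted edgeR p was 0.00233, with a log2 difference of 3.16, and its adjusted p was 0.999. Prostaglandin G/H synthase 2-like PB.11192, the cyclooxygenase step, was at 0.0259% in ampullae (17 counts) and 0% to 0.00908% in the other tissues. A further locus, prostaglandin G/H synthase 2 PB.10108, was at 0.0198% in ampullae and 0.0367% in upper palate. Both cyclooxygenase loci were picked after their values were seen. Of 27 loci matched to the prostaglandin pathway, 8 had enough counts, 1 was above (0.58% over all loci) and 0 were below (0.122% over all loci). Their median log2 ratio was -0.17, against -0.13 over all loci. This list, too, was drawn up after the values were seen.

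Regulators of early responses and of transcription were also above. IEX-1-like PB.28330, an immediate-early gene, was at 0.35% in ampullae, 0.0633% in barbel, 0.0351% in upper palate, 0.0176% in mouth rim, 0% in esophagus and 0.126% in dorsal skin, a ratio of 2.77 to dorsal skin (2.25 to 3.42). CCAAT/enhancer-binding protein beta (PB.19589), a transcription factor of epithelial and inflammatory genes, was at 1.05% in ampullae, 0.313% in barbel, 0.687% in upper palate, 0.497% in mouth rim, 0.263% in esophagus and 0.423% in dorsal skin. Its ratio to upper palate was 1.53 (1.36 to 1.73). The related locus PB.21620 had 59 ampullae counts, 0.0897%, against 0.00664% to 0.0446% elsewhere, and its interval was not clear of the others. The most abundant factor, jun-D-like PB.24309, was not above, at 1.33% in ampullae, 1.52% in upper palate and 1.33% in mouth rim. Immediate-early and heat shock loci summed to 3.57% in ampullae, between 2.65% in esophagus and 3.76% in dorsal skin. 

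Beta-catenin-interacting protein 1 (PB.18657), an inhibitor of Wnt signalling, stood at 0.176% in ampullae, 0.0965% in barbel, 0.0966% in dorsal skin and 0% to 0.00957% in the 3 remaining tissues. The ratio to dorsal skin was 1.83 (1.4 to 2.38). Pancreatic progenitor cell differentiation and proliferation factor-like PB.21548 was at 0.668% in ampullae and 0.128% to 0.319% elsewhere, 2.1 times dorsal skin (1.82 to 2.41). Its name comes from another tissue, and its role in skin is not given in the sources used here.

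Cell-surface, matrix and membrane-associated proteins completed the list. Extracellular matrix protein A-like PB.25710 was at 0.214% in ampullae, 0.0408% in barbel, 0.0654% in upper palate, 0.0871% in mouth rim, 0.0154% in esophagus and 0.0396% in dorsal skin, a ratio of 2.46 to mouth rim (1.89 to 3.22). Unnamed transcripts of the same locus added 140 counts in ampullae and 263 over the other 5 tissues. Another locus of that name, PB.24909, had 0 counts in ampullae and 0 to 23 elsewhere. AHNAK-like PB.14711, a giant scaffold under the cell membrane, was at 0.135% in ampullae and 0.024% to 0.0618% elsewhere (ratio 2.19, 1.19 to 4.4). Cingulin-like PB.844, which joins tight junctions to the cytoskeleton, was at 0.0548% in ampullae and 0.0051% to 0.0264% elsewhere (ratio 2.07, 1.25 to 3.45). Its namesake PB.855 was not called, at 0.0106% in ampullae and 0.00868% to 0.0309% elsewhere. Annexin A5b (PB.2616), a calcium-dependent membrane-binding protein, was at 0.173% against 0.0462% to 0.109% (ratio 1.59, 1.26 to 2.01). Aquaporin-3-like PB.1419, a water and glycerol channel of epidermis, was at 0.143% against 0.0206% to 0.0975% (ratio 1.47, 1.13 to 1.89).

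Calmodulin-1 was above at 1 locus, and other loci of the same name were not called. Calmodulin is a small calcium sensor encoded by several genes for the same protein. Locus PB.19428 was above, at 0.0669% in ampullae and 0.00797% to 0.0314% elsewhere (ratio 2.13 to dorsal skin, 1.35 to 3.38). Loci PB.4943 and PB.5982, with the same protein name, were at 0.0684% and 0.0806% in ampullae, with 0.0893% to 0.177% and 0.0677% to 0.212% elsewhere. All loci matched as calmodulin or calmodulin-like summed to 0.239% in ampullae, within the 0.206% to 0.436% of the other tissues. The last of the 19 was a bifunctional methylenetetrahydrofolate dehydrogenase (PB.23964), an enzyme of folate metabolism, at 0.201% in ampullae and 0.0144% to 0.139% elsewhere (ratio 1.44, 1.14 to 1.82).

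The 4 loci below the other tissues were enzymes and a secreted glycoprotein. L-proline trans-4-hydroxylase-like PB.17181 had 9 ampullae counts, a share of 0.0137%, with 0.191% in barbel, 0.0734% in upper palate, 0.229% in mouth rim, 0.206% in esophagus and 0.498% in dorsal skin. The lowest other tissue, upper palate, was 5.36 times higher (2.59 to 12.5). Glutamine amidotransferase-like class 1 domain-containing protein 3A (PB.17964) was at 0.0274% in ampullae and 0.0694% to 0.448% elsewhere. The nearest tissue was 2.54 times higher (1.55 to 4.41). Loci PB.17183 and PB.8980, of the same name, were each at 0.00608% in ampullae and were not called. Elsewhere they ranged from 0.00204% to 0.196% and from 0.00515% to 0.0144%. Galectin-3-binding protein-like PB.15756, a secreted glycoprotein of mucosal surfaces, was at 0.0608% against 0.134% to 0.356% (2.2 times, 1.49 to 3.29). UDP-glucose 6-dehydrogenase PB.2580, which makes the glucuronic acid precursor of hyaluronan and proteoglycans, was at 0.0411% against 0.0817% to 0.257% (1.99 times, 1.32 to 3.11).

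Hyaluronan synthase 1-like PB.22890 was at 0.0076% in ampullae and 0.0123% to 0.133% elsewhere without being called. The 35 loci matched as sugar nucleotide and proteoglycan precursors summed to 0.155% in ampullae (0.127% to 0.188%) and 0.196% to 0.729% elsewhere. The interval of barbel (0.176% to 0.216%) overlapped that of ampullae. Of 14 tested, 1 was below (0.122% over all loci) and 0 above (0.58% over all loci). This list, too, was drawn up after the values were seen.

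Thresholds cut through a continuous range. The locus that came closest to being called above was poly(U)-specific endoribonuclease-A-like PB.13187, at 0.246% in ampullae and 0.19% in barbel. The nearest miss on the lower side was cathepsin Z-like PB.19858, at 0.0183% in ampullae and 0.0462% to 0.0875% elsewhere. Just inside it, the lower bound of AHNAK-like PB.14711 in ampullae was 0.109% and the upper bound in esophagus 0.108%. On the lower side, the called locus with the narrowest gap was UDP-glucose 6-dehydrogenase, with bounds of 0.0597% in ampullae and 0.0695% in barbel.

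The receptor cell markers examined did not set the ampullae library apart. The 9 loci retained for electroreceptors and hair cells summed to 8 ampullae counts, or 0.0122% (0.00525% to 0.024%), and to 0.00817% to 0.0446% in the other tissues. Otoferlin, which triggers transmitter release in hair cells, had 0 counts in ampullae and 1 each in mouth rim and dorsal skin, and the limit of 3 counts for the 0 in ampullae is a share of 0.00456%. Unconventional myosin-VI-like PB.6972, a motor of hair cells that epithelia also express, had 4 ampullae counts, against 4 to 11 in the other tissues. Calretinin-like PB.18212, a calcium buffer of sensory cells, had 0 in ampullae, 4 in barbel, 16 in upper palate and 1 in mouth rim. The L-type calcium channel alpha-1D and parvalbumin were not analysed here. In whole tissue, fewer cells of a type and less RNA per cell cannot be told apart. At this depth the markers examined here were not detectable above the level in the other tissues. Only 2 of the 9 loci had enough counts to be tested. Nerve and synapse loci retained after wrong name matches were taken out summed to 0.0593% in ampullae, within the 0.0257% to 0.0669% elsewhere, and cilia loci to 0.0411%, within 0.0373% to 0.0574%.

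Mucus genes were low in ampullae, as in dorsal skin. The 26 loci matched as mucous secretion summed to 0.0578% in ampullae (0.0409% to 0.0793%), 0.0594% in dorsal skin, 0.0858% in barbel, 0.333% in upper palate, 0.39% in mouth rim and 0.891% in esophagus. The intervals of ampullae, barbel and dorsal skin overlapped. The most abundant mucus locus of ampullae was calcium-activated chloride channel regulator 1-like PB.11356, at 0.0183% (12 counts) and 0% to 0.0239% elsewhere, with a log2 ratio of 1.65 to the median of the other tissues. IgGFc-binding protein-like PB.22873, a component of mucus gels, had 0 counts in ampullae, 7 in barbel, 37 in upper palate, 117 in mouth rim, 41 in esophagus and 13 in dorsal skin. Its namesake PB.28876 had 0 in ampullae and 7 to 129 elsewhere, and gel-forming mucin-2-like PB.13250 had 1 in ampullae, 1 in dorsal skin, 7 in barbel and 28 to 56 in the 3 other tissues. Of the 12 mucus loci with enough counts, 0 were above (0.58% over all loci) and 0 below (0.122% over all loci). Their median log2 ratio to the median of the other tissues was -1.44, against -0.13 over all loci.

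**Figure D3:**
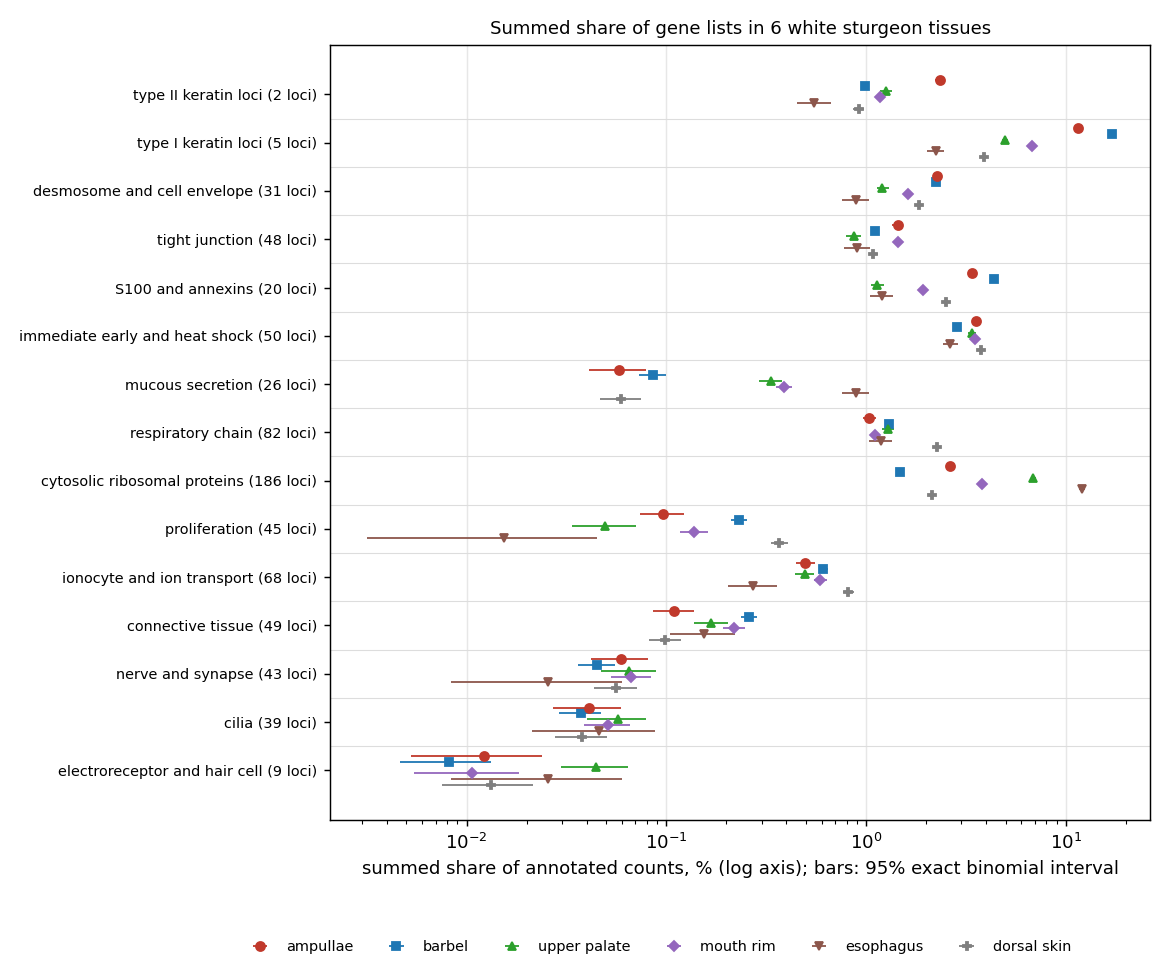
Summed shares of named counts (%, log axis) of 15 gene lists in 6 white sturgeon tissues, with 95% exact binomial intervals and 1 library per tissue. The red ampullae point lies clear above or below all others only for the 2 type II keratin loci, at 2.34%, and overlaps the other tissues for electroreceptor loci and for mucous secretion, at 0.0122% and 0.0578%.

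Of 22 lists of sterlet protein names matched as written, 0 had an ampullae interval clear of all 5 other tissues. The type I and type II keratin lists among them held no counts as written and could not be called. The keratin loci typed from the study's transcript list are given above. Desmosome and cell envelope loci were highest in ampullae, at 2.28% against 0.891% to 2.23%. Without barbel, desmosome and cell envelope loci and S100 and annexin loci were clear above, and without mouth rim, tight junction loci were. Tight junction loci, whose list also took in beta-catenin-interacting protein 1, summed to 1.44% in ampullae and in mouth rim and to 0.871% to 1.11% elsewhere. S100 and annexin loci summed to 3.39%, below 4.4% in barbel. Respiratory chain loci were lowest in ampullae, at 1.04% against 1.11% to 2.26%. Their ampullae interval of 0.966% to 1.12% overlapped those of mouth rim and esophagus. Cytosolic ribosomal proteins took 2.63% in ampullae, between 1.48% in barbel and 12.1% in esophagus. Proliferation loci took 0.0958%, between 0.0154% in esophagus and 0.369% in dorsal skin. Ion transport loci took 0.497%, within the 0.273% to 0.816% of the other tissues. Of 23 with enough counts, 1 was above (0.58% over all loci) and 0 below (0.122% over all loci). By share alone 3 ranked highest (9.98% over all loci) and 7 lowest (13.4% over all loci). The locus above was aquaporin-3-like PB.1419, the most abundant of the list in ampullae, at 0.143% against 0.0206% to 0.0975%. V-type proton ATPase subunit A-like PB.9681, a pump subunit of acid-secreting ionocytes, was at 0.00913% in ampullae and 0.0103% to 0.0602% elsewhere. It was not called.

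Cartilage, bone and pigment markers were scarce, and the sums for other tissue layers lay within the range of the other tissues. Connective tissue loci summed to 0.11% in ampullae and 0.099% to 0.26% elsewhere, led by SPARC-like PB.13912 at 24 ampullae counts. Cartilage and bone loci had 2 ampullae counts and the retained pigment loci 1. Muscle loci summed to 0.205%, within 0.136% to 0.264%, and their most abundant locus was a myosin regulatory light chain (PB.4223) at 0.0973%. Retained immune loci summed to 1.53% in ampullae and 0.975% to 3.03% elsewhere. Retained blood loci summed to 0.108% in ampullae and 0.0558% to 0.165% elsewhere. Among the immune loci lysozyme C (PB.4422), an antibacterial enzyme, was the most abundant. It was at 0.555% in ampullae, 0.516% in mouth rim and 0.268% to 0.411% in the other 4 tissues. Of the genes by which the study follows toxic responses, cytochrome P450 1A had 0 ampullae counts and 0.000825% to 0.0326% elsewhere, cytochrome P450 3A was at 0.0578% against 0.0412% to 0.208%, and the aryl hydrocarbon receptor had 2 counts.

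Ampullae shared a position with barbel and dorsal skin at 44 loci. Intervals of these 3 tissues together lay above those of upper palate, mouth rim and esophagus at 19 loci (0.58% of those tested) and below them at 25 (0.763%). This grouping was chosen after its counts were seen, and other groupings held more or similar numbers. The largest held all tissues but dorsal skin, above it at 12 loci (0.366%) and below at 79 (2.41%). All tissues but esophagus were above it at 12 (0.366%) and below at 69 (2.1%). Ampullae, barbel, mouth rim and dorsal skin together were above the other tissues at 17 loci (0.519%) and below at 58 (1.77%). For ampullae, upper palate, mouth rim and esophagus together the counts were 22 (0.671%) and 19 (0.58%). Annexin A1-like PB.1945, a membrane-binding protein abundant in stratified epithelia, was at 2.24% in ampullae, 3% in barbel, 1.68% in dorsal skin, 0.209% in upper palate, 0.76% in mouth rim and 0.0824% in esophagus. Leukocyte elastase inhibitor-like PB.3154, an intracellular serpin, was at 1.24% in ampullae, 1.68% in barbel, 0.442% in dorsal skin and 0.0515% to 0.105% in the other 3 tissues. Histamine N-methyltransferase-like PB.10599 was at 0.254% in ampullae, 0.121% in barbel, 0.329% in dorsal skin and 0% to 0.0223% elsewhere. Extracellular superoxide dismutase-like PB.2552 was at 0.105% in ampullae, 0.17% in barbel, 0.248% in dorsal skin and 0.0103% to 0.0158% elsewhere. Of the 19 loci, 4 were also above the other tissues in ampullae alone, namely PB.18657, PB.22698, PB.3216 and PB.5830.

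The 25 loci below in the same 3 tissues included 9 named as ribosomal proteins. The list of cytosolic ribosomal proteins, which holds 8 of these, made up 107 (3.26%) of the 3278 loci tested. Among the rest were both IgGFc-binding protein-like loci, mucin-2-like PB.13250, and claudin-4-like PB.17503, a tight junction protein with 1 ampullae count against 18 to 52 in upper palate, mouth rim and esophagus. Keratin PB.20744 was the most abundant, at 1.19% in ampullae, 0.44% in barbel, 0.472% in dorsal skin, 2.74% in upper palate, 2.41% in mouth rim and 1.81% in esophagus. Beta-2-microglobulin PB.24960, the light chain of class I antigen-presenting molecules, was at 0.322% in ampullae, 0.242% to 0.332% in dorsal skin and barbel and 0.757% to 0.926% in the other 3 tissues.

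**Figure D4:**
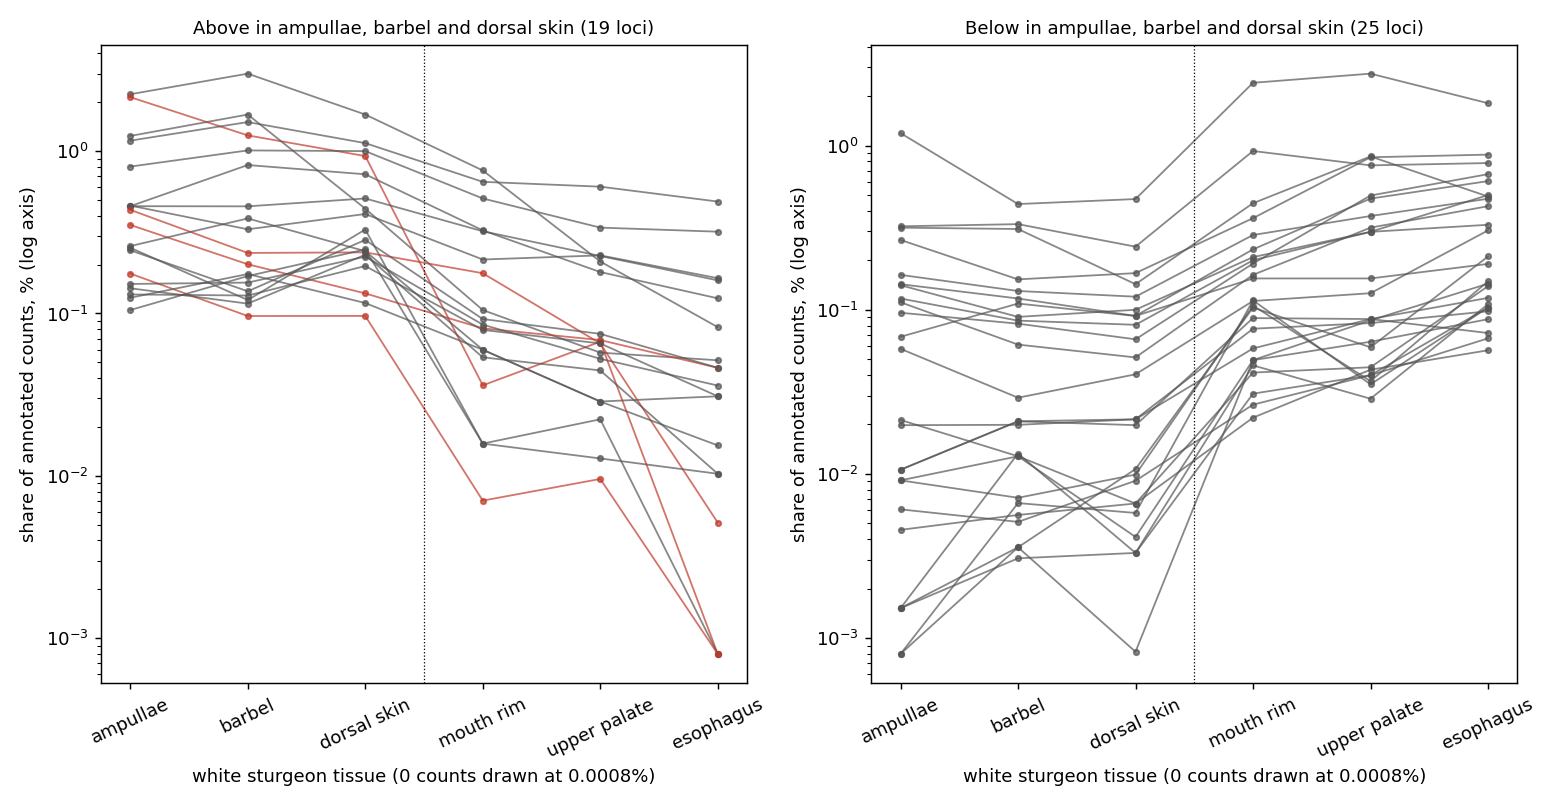
Shares of named counts (%, log axis) of 19 loci above (left) and 25 below (right) in ampullae, barbel and dorsal skin together, 1 line per locus across 6 tissues. Red lines are the 4 loci also above all other tissues in ampullae alone, and the dotted line separates the 3 tissues from mouth rim, upper palate and esophagus.

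Pair by pair, intervals of the 3278 loci tested were compared between ampullae and each other tissue. They did not overlap at 477 loci for barbel, 332 for upper palate, 328 for mouth rim, 319 for esophagus and 415 for dorsal skin. These numbers follow depth as well as likeness. With all libraries thinned to 19427 named counts the totals were 96 for barbel, 130 for upper palate, 94 for mouth rim, 210 for esophagus and 107 for dorsal skin. After this thinning only 992 loci had enough counts to be tested, so totals before and after it are not directly comparable. The share of counts that 2 thinned libraries did not have in common, summed over loci, was 34.9% with mouth rim, 37% with barbel, 38.2% with dorsal skin, 41.4% with upper palate and 50.0% with esophagus. The 10 most abundant loci of ampullae held 22.3% of its counts, 26% of barbel counts and 8.59% to 14.7% in the other 4 tissues.

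Few transcripts were found in the ampullae library alone. Of 9849 named loci with any count in the 6 tissues, 5628 had counts in ampullae and 154 of these had none in the other 5, each with at most 5 counts. The most one-sided loci with more counts fell under the minimum of 20 and were picked after their values were seen. Fatty acyl-CoA hydrolase precursor PB.18338 had 15 counts in ampullae and 1 in barbel, and interleukin-20-like PB.21710, a cytokine of epithelial surfaces, had 11 in ampullae, 2 in barbel and 1 in upper palate. Zona pellucida-like domain-containing protein 1 (PB.9755) had 5 counts in ampullae and 0 in the other 17 libraries. The two-sided interval of esophagus used for the calls, with 0 of 19427 counts, reaches 0.019% and is by itself enough to keep such loci from being called.

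Cultures from green sturgeon ampullae gave a separate view of the 19 loci above, from another species and from cells grown in vitro. In both green ampullae cultures 3 of the 19 had a higher share than in all 4 other green epithelial cultures, namely PB.18657, PB.25399 and PB.2616. Over all 4358 loci with enough counts in those cultures this held for 8.26%. Annexin A5b (PB.2616) was at 0.0945% to 0.143% in the green ampullae cultures and 0.0432% to 0.0909% in the 4 others. Beta-catenin-interacting protein 1 (PB.18657) was at 0.00153% to 0.00621% against 0.000383% to 0.00145%. Keratin PB.25399 was at 0.0146% to 0.0162% against 0.00435% to 0.00975%. Aquaporin-3-like PB.1419 and cingulin-like PB.844 had no counts in any green epithelial culture. With 2 cultures against 4, an exact permutation test cannot go below a one-sided p of 0.0667, and none was run.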

How the data were processed

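The deposited table holds 70537 transcripts and 18 count columns, 1 per library. The authors made these counts with IsoSeq3, aligned the transcripts to the sterlet genome (ASM1064508v1), filtered them with Sqanti3 on a minimum of supporting reads, and named translated transcripts by blastp against sterlet proteins. Counts are whole reads per transcript, not normalized, and protein names end at the first comma. All count columns matched a library (0 did not). Rows were summed by PacBio locus.

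Shares of named counts were given exact 95% binomial intervals. Loci with at least 20 counts over the 6 tissues were tested with edgeR 4.0.16 (quasi-likelihood test, TMM factors, Benjamini-Hochberg adjustment) and, as an alternative, DESeq2 1.42.0, in R 4.3.3. Both were tested on simulated data for the ampullae comparison. There 200 of 3278 loci were raised 8-fold, drawn only from loci with at least 100 counts over the 6 tissues. The dispersion was 0.2, lower than the 0.348 estimated here. In that setting edgeR recovered 77.5% of the raised loci, and recovery of loci with fewer counts was not tested. Alternatives were the total, interval, filter, scaling, summing and each other tissue left out.

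Text names came from a rule: the 15 loci above and 15 below with the largest ratios, the 10 most abundant, the most abundant locus of each list, the electroreceptor list, and genes the study follows. CCAAT/enhancer-binding protein beta, aquaporin-3 and methylenetetrahydrofolate dehydrogenase, loci said to be picked after their values, and other list members given beside these (such as PB.9681, PB.22890 and the IgGFc-binding protein-like loci) fall outside it and were picked after their values were seen. Members and lists were chosen with earlier results of these data known. Of 22 lists, 8 were trimmed of wrong name matches, keratin types were inferred from the names in the study's transcript list, and 6 lists were added after values were seen. No sequences were used here.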

Additional observations from a re-analysis of the deposited data

Results flagged for a closer look

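Transcripts with no sterlet protein name were left out of the shares above. Of 260 loci with at least 20 such counts over the 6 tissues, 3 were above the other 5 tissues in ampullae and 0 below, as shares of all counts. Locus PB.7674 held 0.323% of all ampullae counts (243 counts) and 0.101% to 0.155% elsewhere. Unnamed transcripts of PB.25710, the extracellular matrix protein A-like locus, held 0.186% and 0.0101% to 0.0884% elsewhere, and those of the type II keratin locus PB.25558 held 0.0385% (29 counts) and 0.00671% to 0.0143%. At the 2 last loci the named transcripts were above as well.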

How the results depend on the processing

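The 19 loci above and 4 below became 327 and 439 by shares without intervals, 9 and 1 with stricter intervals, and 9 and 1 with all libraries thinned to the smallest total, a setting added after seeing the data. With transcripts not summed, 34 were above. Leaving out each other tissue gave 21 to 30 above and 4 to 7 below, with all 19 and all 4 retained. Of the 23 loci, 7 kept their call in all 12 settings that score loci (PB.5830, PB.19589, PB.21548, PB.22698, PB.25558, PB.25710 and PB.28330). The fewest kept was 8 of 12. Dropping the intervals or the filter likewise cannot lose a call. Only the change of total, stricter intervals, a higher filter, TMM scaling and thinning could lower these numbers. TMM scaling gave 27 above, 18 of them shared. edgeR called 0 loci in all settings but 1: with no filter beyond 1 count it called 1 higher, fatty acyl-CoA hydrolase precursor PB.18338 (adjusted p = 0.01), against lowest adjusted p-values of 0.973 to 1 elsewhere. The number of 22 lists clear of all other tissues went from 0 to 2 under TMM scaling (tight junction, immediate early and heat shock). It was 1 after trimming and naming keratin loci, a setting added after seeing the data. That list, type II keratins, held no counts as first matched. Leaving out each tissue gave 0 to 2. Of the alternative values of list and named-locus ratios, 308 stayed within the counting interval and 89 left it. None of the 23 called loci crossed a ratio of 1, but 34 values of uncalled results did, for 10 lists and 6 abundant loci. Leaving out a tissue could only raise or keep the ratio of a called locus. Without barbel PB.3154 went from 0.738 to 2.8, PB.22701 from 0.501 to 1.37, PB.1945 from 0.747 to 1.34 and PB.12861 from 0.808 to 1.04. Without upper palate PB.24309 went from 0.879 to 1.01, and without esophagus PB.25257 from 0.761 to 1.49 (1.02 with all counts as total). The tissue left out in each case was the nearest one. Esophagus, with 19427 named counts, limits what can be called above. No paired analysis was possible because each tissue had 1 library.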
